A study of Mus musculus with 2 samples.

Results

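Cycling C1q macrophages are tumour macrophages that carry transcripts of both complement C1q and the cell division machinery. They were chosen by measured UMIs, as barcodes with at least 10 UMIs of C1qa, C1qb and C1qc together, at most 1 UMI of the CD3 genes Cd3d, Cd3e and Cd3g, fewer than 3 of the 5 genes Hspb1, Pgf, Sdc1, Rhov and Arg2 detected, and at least 3 UMIs of the 4 cycle genes Mki67, Top2a, Birc5 and Ube2c together. A UMI (unique molecular identifier) counts 1 captured transcript. Of 2611 barcodes in the series, 63 met the rule, 5 in the Nrp1L/L library and 58 in the control library. The cells were CD45+ leukocytes sorted on day 14 from B16 tumours, a transplanted mouse melanoma, and profiled by 3' droplet single-cell RNA sequencing. Nrp1L/L stands here for Nrp1L/LFoxp3Cre-YFP mice, in which Cre made from the Foxp3 locus acts on a floxed Nrp1 gene in regulatory T (Treg) cells. The control mice were Foxp3Cre-YFP, so both groups carry the Cre and YFP allele, and all mice were 5-week-old C57BL/6 females bearing the same tumour line. The series title asks how Treg cells affect SREBP1-dependent fitness of tumour macrophages and what interferon-gamma from CD8 T cells does in between.

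Each genotype has 1 library, so no comparison between genotypes can be tested, and effects of genotype, mouse, tumour and library cannot be told apart. The 95% intervals below cover counting error only, within these libraries. The Nrp1L/L library held 1301 barcodes with a median of 5334 UMIs, and the control library 1310 barcodes with a median of 8079.5 UMIs. Cycling C1q macrophages were deeper than that in both, with medians of 15390 UMIs per cell (9138 to 23189) in Nrp1L/L and 15215 (4342 to 28992) in control. Summed over cells, the Nrp1L/L members gave 77114 UMIs and the control members 929928, so every Nrp1L/L level below is the less precise of the pair. The libraries share 3 barcode sequences, of which 1 is a control member and 0 are Nrp1L/L members. Nrp1 itself cannot check the genotype here. Only 3 barcodes per library carried both Foxp3 and CD3 UMIs, and they held 1 Nrp1 UMI in Nrp1L/L and 0 in control.

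C1q is the recognition part of the classical complement pathway. It is made mainly by tissue macrophages and their tumour counterparts, which take up dying cells and debris. Macrophages can be replaced by blood monocytes or can divide in place under colony-stimulating factor 1, and dividing cells first copy their DNA in S phase and then assemble the mitotic machinery in G2/M. Interferon-gamma drives macrophages to display antigen on MHC class II and to make the chemokines Cxcl9 and Cxcl10 that attract T cells.

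Of the 4 cycle genes, Mki67 encodes the proliferation antigen Ki-67, Top2a the topoisomerase that untangles replicated chromosomes, Birc5 survivin of the chromosomal passenger complex, and Ube2c the ubiquitin-conjugating enzyme of the anaphase-promoting complex. Their promoters are shown because they carry the genes that set who is counted as cycling. Sequences are from RefSeq on GRCm38.p6 and run from 250 bases before to 50 bases after each gene's start, 5′ to 3′ on the gene's strand. Mki67 lies at chr7:135716330-135716629 on the minus strand, Top2a at chr11:99024140-99024439 on the minus strand, Ube2c at chr2:164769679-164769978 on the plus strand, and Birc5 at chr11:117848987-117849286 on the plus strand. Capitals mark TTTGAA, the core of the cell cycle homology element, or CCAAT, the box bound by NF-Y, either as written or as their reverse complements TTCAAA and ATTGG.
Mki67: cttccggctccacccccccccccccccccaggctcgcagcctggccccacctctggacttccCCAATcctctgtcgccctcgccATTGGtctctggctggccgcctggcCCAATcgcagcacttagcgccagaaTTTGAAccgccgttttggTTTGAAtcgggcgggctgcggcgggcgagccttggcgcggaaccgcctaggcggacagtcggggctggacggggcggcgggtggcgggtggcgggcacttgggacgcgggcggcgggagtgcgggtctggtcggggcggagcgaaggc
Top2a: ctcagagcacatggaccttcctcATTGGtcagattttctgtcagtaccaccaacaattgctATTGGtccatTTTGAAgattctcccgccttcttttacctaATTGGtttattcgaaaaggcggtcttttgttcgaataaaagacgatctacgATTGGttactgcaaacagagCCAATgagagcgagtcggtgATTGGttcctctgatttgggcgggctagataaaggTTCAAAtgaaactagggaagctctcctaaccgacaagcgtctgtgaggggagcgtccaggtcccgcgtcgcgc
Ube2c: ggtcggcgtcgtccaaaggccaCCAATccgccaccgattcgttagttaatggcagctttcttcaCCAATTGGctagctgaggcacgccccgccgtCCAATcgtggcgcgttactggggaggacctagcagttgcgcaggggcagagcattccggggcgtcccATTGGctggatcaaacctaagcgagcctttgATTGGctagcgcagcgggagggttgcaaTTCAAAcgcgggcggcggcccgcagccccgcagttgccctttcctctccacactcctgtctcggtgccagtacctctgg
Birc5: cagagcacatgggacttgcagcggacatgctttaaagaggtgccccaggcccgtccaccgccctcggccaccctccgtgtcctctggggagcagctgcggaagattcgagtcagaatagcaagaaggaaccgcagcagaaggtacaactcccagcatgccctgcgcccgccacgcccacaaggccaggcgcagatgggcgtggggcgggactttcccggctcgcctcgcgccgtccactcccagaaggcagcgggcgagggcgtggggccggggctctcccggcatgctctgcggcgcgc

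The Mki67 window held 2 TTTGAA and 3 CCAAT matches, Top2a 2 and 6, and Ube2c 1 and 6, while Birc5 held 0 of both. In Ube2c one stretch, CCAATTGG, is a CCAAT match on both strands that overlap. Across the 38 G2/M genes examined below, 32 had a promoter in the table, and 25 of these (78.1%) held TTTGAA, 27 (84.4%) CCAAT and 22 (68.8%) both. Of the 34 S phase genes, 31 had a promoter, of which 4 (12.9%) held TTTGAA, 17 (54.8%) CCAAT and 3 (9.68%) both. TTTNNCGC, a form of the E2F site, showed the other order, in 13 S phase promoters (41.9%) against 2 G2/M promoters (6.25%). Among all 32851 mouse promoters of the same length the shares were 17.9% for TTTGAA, 37.4% for CCAAT, 5.17% for TTTNNCGC and 6.95% for TTTGAA with CCAAT. These are letter matches on both strands, and they do not show that a factor binds.

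The 5 Nrp1L/L members were 5.68% of the 88 C1q macrophages of their library (1.87 to 12.8), where C1q macrophages are the barcodes that met every criterion except the cycle genes. The 58 control members were 22.1% of 263 (17.2 to 27.6). The difference was -16.4 percentage points (-22.7 to -8.05). As a share of all barcodes, cycling C1q macrophages were 0.384% in Nrp1L/L and 4.43% in control, and C1q macrophages as a whole 6.76% and 20.1%. Among all barcodes with at least 3 cycle UMIs, they were 5 of 148 (3.38%) in Nrp1L/L and 58 of 236 (24.6%) in control. Both the size of the C1q compartment and the cycling share inside it were therefore smaller in the Nrp1L/L library.

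Depth differs between the libraries, and a deeper cell is more likely to show 3 cycle UMIs. When every cell was thinned to 2500 UMIs and at least 1 cycle UMI was asked for, 8 of 88 Nrp1L/L cells (9.09%) and 58 of 263 control cells (22.1%) qualified, a difference of -13 points (-19.9 to -3.88). Within bands of depth, cells with at least 15000 UMIs cycled in 3 of 11 cases (27.3%) in Nrp1L/L and 49.2% of cases in control, and those of 10000 to 15000 UMIs in 3.85% and 20.9%. C1q macrophages with 0 cycle UMIs were 75 of 88 (85.2%) in Nrp1L/L and 159 of 263 (60.5%) in control. CD8 T cells, taken as barcodes with at least 2 CD3 UMIs, at least 1 UMI of the CD8 genes and fewer than 10 C1q UMIs, also had the smaller cycling share in Nrp1L/L, with 101 of 450 (22.4%) against 117 of 267 (43.8%) in control, a difference of -21.4 points (-28.4 to -14.3). Whether the macrophage and T cell differences are unequal was not tested.

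Cycling was concentrated where C1q was high and monocyte genes were low. In the control library the cycling share was 6.90% of cells with under 30 C1q UMIs per 10000 UMIs, 9.76% from 30 to 100, 28.7% from 100 to 200 and 36.2% at 200 or more. In the Nrp1L/L library all 5 members lay in the highest band, 5 of 23 cells (21.7%), and the lower bands held 0 of 7, 0 of 39 and 0 of 19. Against the monocyte markers, genes of cells recently arrived from blood such as Ly6c2, Ccr2 and Plac8, the order was the reverse. The control share was 55.4% below 5 marker UMIs per 10000, 46.2% from 5 to 10, 11.1% from 10 to 30, 3.53% from 30 to 100, and 0 of 24 above that. The Nrp1L/L share was 16.7% in each of the lowest bands, 12.5% from 10 to 30, and then 0 of 40 and 0 of 14.

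For MHC class II the same held in the control library. Control cells with under 10 UMIs per 10000 of H2-Aa, H2-Ab1, H2-Eb1 and Cd74 cycled in 51.5% of cases, against 28.9%, 14.6%, 3.77% and 5.36% in the bands starting at 10, 30, 100 and 300. In Nrp1L/L, 1 of 4, 1 of 5 and 0 of 18 cells cycled under 10 and in the bands starting at 10 and 30. Most C1q macrophages of that library lay in the upper pair of bands, where 2 of 25 and 1 of 36 cycled. C1q-high cells low in monocyte genes (at least 100 C1q and under 10 monocyte UMIs per 10000, limits chosen after the data were seen) were 14.8% of C1q macrophages in Nrp1L/L and 28.5% in control. Within them 3 of 13 cells (23.1%) cycled in Nrp1L/L and 42 of 75 (56.0%) in control, a difference of -32.9 points (-51.2 to -3.51).

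**Figure D1:**
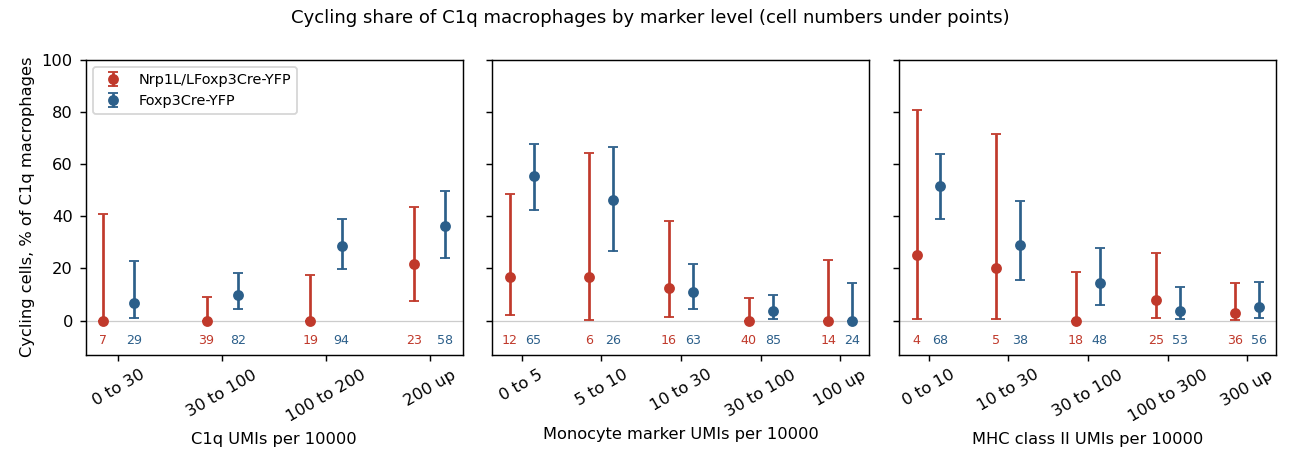
Percentage of C1q macrophages that were cycling (y axis) in bands of C1q, monocyte marker and MHC class II UMIs per 10000 UMIs (x axes), with exact 95% binomial intervals and cell numbers beneath. The control share (blue) climbs from 6.90% to 36.2% over the C1q bands and is 0 of 24 in the highest monocyte band, while all 5 Nrp1L/L members (red) lie in the highest C1q band.

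Most members carried the transcripts of macrophages. C1qa, C1qb and C1qc lie on the minus strand of chromosome 4 (GRCm38), C1qa at 136895917 to 136898803, C1qc at 136889804 to 136893065 and C1qb at 136880129 to 136886187. C1qa, C1qb and C1qc stood at 11386, 9959 and 8105 CPM, UMIs of the gene in each 1000000 UMIs of the group, in Nrp1L/L members and 6099, 6456 and 5446 CPM in control members. These levels were part of the choice of cells. Per 10000 UMIs, C1q ran from 205 to 366 (median 333) over the 5 Nrp1L/L cells and from 18.2 to 363 (median 185) over the 58 control cells. Csf1r, the receptor for the macrophage growth factor, was found in 4 of 5 Nrp1L/L and 48 of 58 control members, against 0% and 4.27% of cycling CD8 T cells. C1qa UMIs were found in 6.93% of cycling CD8 T cells in Nrp1L/L and 23.9% in control, which by definition held fewer than 10 C1q UMIs each. Free RNA and doublets were not told apart as their source. Adgre1, which encodes F4/80, was found in 4 of 5 and 45 of 58 members, Ms4a7 in 5 of 5 and 49 of 58, and Mertk, a receptor for dying cells, in 1 of 5 and 7 of 58. Cd14 was found in 1 of 5 Nrp1L/L members, with 2 UMIs, and in 48 of 58 control members. All 13 macrophage markers were detected in both groups, at 50.02 to 158 UMIs per 10000 (median 85.1) in Nrp1L/L and 3.72 to 391.8 (median 111) in control. The control cell at 3.72 had 13423 UMIs, 20.1 C1q UMIs per 10000 and 28 cycle UMIs, so the name is less sure for it. Non-cycling C1q macrophages had higher medians, 135 in Nrp1L/L and 169 in control.

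Markers of other cells were few. Monocyte markers summed to 0.854 to 22.6 per 10000 in Nrp1L/L members and 0 to 63.1 in control members. Chil3, Hp, Vcan, Fn1, F13a1, Gsr and Ifitm6 were among those at 0 in Nrp1L/L members, and Ifitm6 was the 1 of 11 at 0 in control members. In CPM several of these lists were nonetheless higher in Nrp1L/L members. The monocyte markers summed to 947 CPM in Nrp1L/L and 562 CPM in control (log2 0.75, 0.38 to 1.11). Plac8 alone gave 66 of the 73 UMIs in Nrp1L/L and 277 of 523 in control. Ly6c2 was near equal, at 64.8 and 65.6 CPM, and the other genes of the list were at 0 in Nrp1L/L except Ccr2, with 2 UMIs. T cell markers stood at 77.8 and 24.7 CPM, from 6 and 23 UMIs (log2 1.65, 0.07 to 2.99). B or plasma cell markers stood at 77.8 and 11.8 CPM, from 6 and 11 UMIs (log2 2.72, 1.00 to 4.28), and conventional dendritic cell markers at 207 and 92.5 CPM, from 16 and 86 UMIs (log2 1.17, 0.30 to 1.95). Stromal markers gave 0 UMIs in both and melanoma markers 0 and 17. The 10 NK cell markers gave 38 UMIs in Nrp1L/L, at 2.60 to 9.05 per 10000, and 52 in control, at 0 to 4.45 (493 and 55.9 CPM, log2 3.14, 2.50 to 3.77). Klrk1, an activating receptor also carried by CD8 T cells, made up 24 of those 38 Nrp1L/L UMIs, with 4, 0, 2, 16 and 2 per cell. Nkg7 (6 UMIs), Gzma (4) and Gzmb (4) were each found in 3 of 5 Nrp1L/L members, against 13, 9 and 8 of 58 control members. The remaining genes of the list, Ncr1, Klrb1c, Klre1, Eomes, Klra8 and Prf1, were at 0 in Nrp1L/L members. Non-cycling Nrp1L/L C1q macrophages had NK marker UMIs too, with a median of 2.25 per 10000 against 0.588 in control. Each of the 5 Nrp1L/L members and 10 of 58 control members held at least 3 T or NK cell marker UMIs, and the part of RNA of these other cells in the results below was not tested.

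The members differed in how many cycle transcripts they held. The 5 Nrp1L/L members, in order of depth, held 13, 4, 9, 9 and 3 UMIs of the 4 cycle genes, and the control members 3 to 51 with a median of 10.5. At least 12 such UMIs were present in 1 of 5 and 27 of 58. At the limit of the rule, 1 Nrp1L/L and 6 control cells held exactly 3 cycle UMIs, and 1 and 11 C1q macrophages held 2 and were not counted. In control, the cells at 3 had a median of 13620 UMIs and 4.25 MHC class II UMIs per 10000, and those at 2 had 10527 UMIs and 28.3.

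Birc5 was the cycle gene seen most often, in 5 of 5 Nrp1L/L members (272.3 CPM from 21 UMIs) and 55 of 58 control members (510 CPM from 474). Ube2c followed in 2 of 5 (130 CPM) and 40 of 58 (283 CPM), Top2a in 2 of 5 (64.8 CPM) and 24 of 58 (59.1 CPM), and Mki67 in 2 of 5 (25.9 CPM) and 23 of 58 (49.5 CPM). Mki67 was thus not detected in most members of either library, and in non-cycling C1q macrophages it gave 0 UMIs in Nrp1L/L and 3 in control.

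Broader S phase and G2/M lists placed the cells. Taking as limits the 95th percentile of non-cycling C1q macrophages of the same library, 2 Nrp1L/L members were above both limits, 2 above the G2/M limit alone and 1 above neither. In control, 23 were above both, 27 above G2/M alone, 3 above S phase alone and 5 above neither. G2/M UMIs per 10000 were 5.85 to 63.5 (median 13.7) in Nrp1L/L and 6.04 to 96.1 (median 34) in control. S phase UMIs were 0.854 to 32.8 (median 7.33) and 1.22 to 53.1 (median 13.4). Few cells were high in S phase genes alone, and the rule itself favours G2/M, since its genes peak there. Over the 58 control members the S phase and G2/M levels had a Spearman correlation of -0.128, a description of cells of 1 library.

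**Figure D2:**
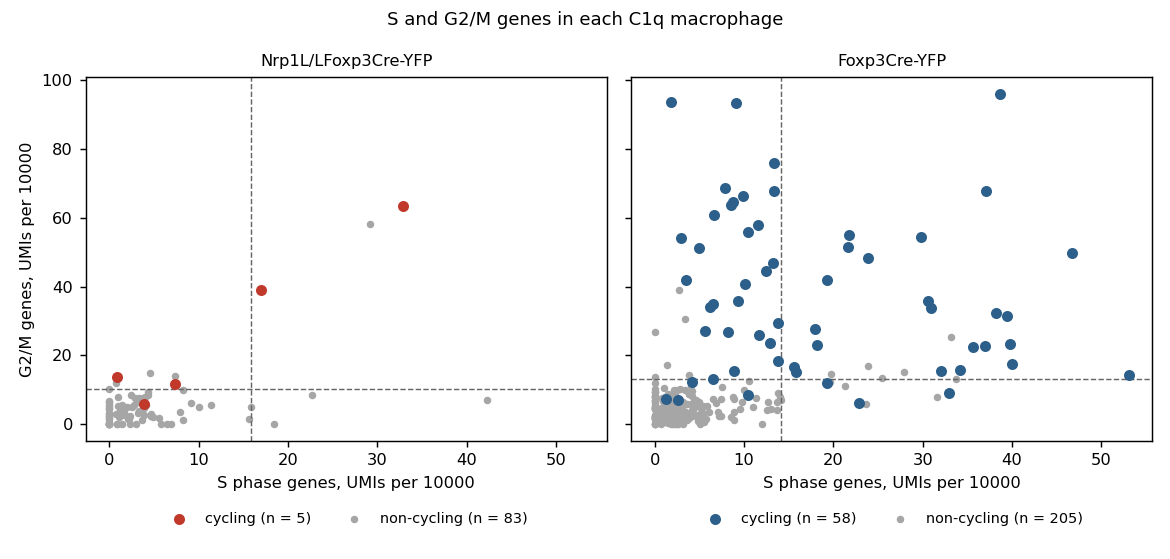
S phase (x axis) and G2/M (y axis) UMIs per 10000 UMIs in each cycling and non-cycling C1q macrophage, with Nrp1L/L and control side by side and dashed lines at the 95th percentile of non-cycling cells. Of the Nrp1L/L members 4 of 5 lie above the G2/M line, and of the 58 control members 23 lie above both lines and 27 above the G2/M line alone.

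Cycling was next compared with non-cycling C1q macrophages inside each library. A gene is counted as higher or lower past 1.5-fold, over genes with at least 20 UMIs in the pair of groups. In control, 2051 of 7355 genes (27.9%) were higher and 1216 (16.5%) lower in the cycling cells. In Nrp1L/L, 1142 of 4041 (28.3%) were higher and 1036 (25.6%) lower. The rule used this contrast, so the cycle lists describe the cells and support nothing. In control, 32 of 32 measured G2/M genes were higher, with a median log2 ratio of 3.84, and 28 of 29 S phase genes, with a median of 1.93, beside 0.20 over all genes. In Nrp1L/L the summed G2/M UMIs were 2321 CPM in cycling and 456 CPM in non-cycling cells (log2 2.35, 2.08 to 2.61), and the summed S phase UMIs 1089 and 358 CPM (log2 1.60, 1.23 to 1.961).

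Single genes show the contrast in control. Ccna2, the cyclin of S phase and G2, stood at 91.4 CPM in cycling cells and 1.38 CPM in non-cycling cells. Plk1, a kinase that drives mitosis, stood at 66.7 and 1.38 CPM, and Cdk1, the mitotic cyclin-dependent kinase, at 154 and 14.8 CPM. Rrm2, a subunit of the enzyme that makes deoxynucleotides, stood at 96.8 and 4.15 CPM, and the replication helicase gene Mcm6 at 91.4 and 23.5 CPM. In Nrp1L/L, Ccna2 was at 90.8 and 7.79 CPM, Cdk1 at 104 and 12.99 CPM, and Rrm2 at 51.9 and 3.90 CPM. The Nrp1L/L levels rest on 7 UMIs of Ccna2, 8 of Cdk1 and 4 of Rrm2 in the cycling cells, and each gene falls short of 20 UMIs over both groups.

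Genes of growth were higher in cycling than in all non-cycling cells of their library. Nucleotide synthesis genes had a median of 1.47 in Nrp1L/L (4 of 5 measured higher) and 0.79 in control (13 of 17 higher). Ribosome biogenesis genes had medians of 1.01 (9 of 11 higher, 2 lower) and 0.66 (10 of 13 higher), and the control median was 0.16 against C1q-high non-cycling cells low in monocyte genes. Among them Ncl, the nucleolar protein nucleolin, stood at 415 CPM in cycling and 206 CPM in non-cycling Nrp1L/L cells, and at 431 and 276 CPM in control. Of genes that govern entry to and exit from the cycle, Ccnd1, the cyclin induced by growth factors, was near equal, at 169 CPM in both Nrp1L/L groups and at 114 and 106 CPM in control. The cell cycle brakes Btg1 and Btg2 were lower in the cycling cells of both libraries, with log2 ratios of -1.16 and -1.68 in Nrp1L/L and -1.90 and -1.70 in control.

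Outside the cycle lists, the 8 genes higher in both libraries by the widest margin were 2810417H13Rik, Stmn1, Hist1h2bc, H2afx, Nucks1, Cmc2, 2700094K13Rik and Lsm2. Stmn1, which destabilises microtubules, stood at 620 CPM in cycling and 68.3 CPM in non-cycling control cells, and 2810417H13Rik, which encodes a PCNA-binding protein, at 284 and 28.1 CPM. Their log2 ratios were 3.85 and 4.47 in Nrp1L/L and 3.18 and 3.33 in control. The 8 lower ones were Ly6c2, Il1b, Ly6i, AA467197, Ccl6, Chil3, S100a6 and S100a4. Ly6c2, the monocyte antigen Ly6C, stood at 65.6 CPM in cycling and 1137 CPM in non-cycling control cells, and Il1b, the inflammatory cytokine interleukin-1 beta, at 97.9 and 1140 CPM. The log2 ratios of Ly6c2 and Il1b were -5.23 and -6.11 in Nrp1L/L and -4.12 and -3.54 in control. Of 3893 genes measured in both libraries, 290 had intervals above 0 in both and 250 below 0 in both.

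Most immune lists were lower in cycling control cells than in non-cycling ones. Of MHC class II genes 8 of 8 measured were lower, with a median of -2.31, and Cd74, the invariant chain, stood at 1307 CPM in cycling and 9138 CPM in non-cycling cells. Type I interferon genes were lower in 20 of 24 cases (median -1.29), interferon-gamma genes in 14 of 28 (median -0.58), and chemokines in 16 of 22 with 1 higher (median -0.98). Alternative activation genes were lower in 9 of 15 (median -0.91), lipid uptake and storage genes in 9 of 19 with 2 higher (median -0.41), cholesterol synthesis genes in 10 of 20 with 1 higher (median -0.62), and glycolysis genes in 7 of 17 (median -0.56). Fatty acid synthesis genes, the usual targets of SREBP1, had a median of 0.42 over 8 genes, with 3 higher and 2 lower. Srebf1 itself gave 2 UMIs in Nrp1L/L members (25.9 CPM) and 22 in control members (23.7 CPM), against 12.99 and 13.4 CPM in non-cycling cells.

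The gap was smaller against non-cycling cells chosen for high C1q and low monocyte genes, with the cycling cells left as they were. Against those 33 control cells, 1365 of 5420 genes (25.2%) were higher and 694 (12.8%) lower in the cycling cells. The MHC class II median was then -0.26 with 0 of 6 past 1.5-fold either way, and Cd74 had a log2 ratio of -0.29 in place of -2.81. With both the cycling and the non-cycling cells limited in that way, the MHC class II median was -0.90 and the type I interferon median -0.36. The values that follow have the non-cycling cells alone limited. The interferon-gamma median was -0.07 (6 higher, 6 lower of 25) and type I interferon -0.20 (3 and 6 of 20). Cholesterol synthesis was at -0.01 (2 and 5 of 13) and nucleotide synthesis at 0.22 (2 and 0 of 14). G2/M remained at 3.08 with 30 of 31 higher, and S phase at 0.72 with 16 of 28 higher and 1 lower. The monocyte marker median, -3.08 against all non-cycling cells, was 1.03 in this comparison, where the marker itself chose the cells.

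A smaller set of macrophage genes was lower in cycling control cells than in these C1q-high non-cycling cells low in monocyte genes. Chemokines stayed lower, with a median of -0.77 and 11 of 21 lower against 2 higher. Cxcl10 stood at 59.1 CPM in cycling cells and 497 CPM in these non-cycling cells (log2 -3.07, -3.54 to -2.63). Ccl12, a monocyte attractant, stood at 1592 and 4106 CPM (log2 -1.37), Pf4, platelet factor 4, at 1856 and 4036 CPM (log2 -1.12), and Apoe, the lipid carrier apolipoprotein E, at 3832 and 8324 CPM (log2 -1.12). Gpnmb, a lysosomal glycoprotein of lipid-laden macrophages, stood at 24.7 and 106 CPM (log2 -2.10). The lipid list had a median of -0.41, with 6 of 17 genes lower and 1 higher. Trem2, a lipid receptor, differed less, at 615 and 693 CPM (log2 -0.17, -0.39 to 0.05). All non-cycling control cells together had 159 CPM of Gpnmb, 4499 CPM of Apoe and 362 CPM of Trem2. Against them Gpnmb was again lower in the cycling cells, Apoe was within 1.5-fold and Trem2 was higher.

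The Nrp1L/L library gave another picture for part of these lists. Its cycling cells had a median of 0.27 over interferon-gamma genes against its own non-cycling cells, with 10 higher and 5 lower of 28, and 0.20 over MHC class I genes, with 3 higher and 1 lower of 13. MHC class II genes were lower in 4 of 7 (median -0.62), type I interferon genes in 14 of 24 (median -0.93), glycolysis genes in 13 of 16 (median -0.98) and lipid uptake genes in 10 of 16 with 1 higher (median -1.46, or -0.73 with genes at 0 set at their bound). Cholesterol synthesis genes were higher in 5 of 10 and lower in 2 (median 0.55). These values rest on 5 cells, and the difference between libraries was not tested.

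**Figure D3:**
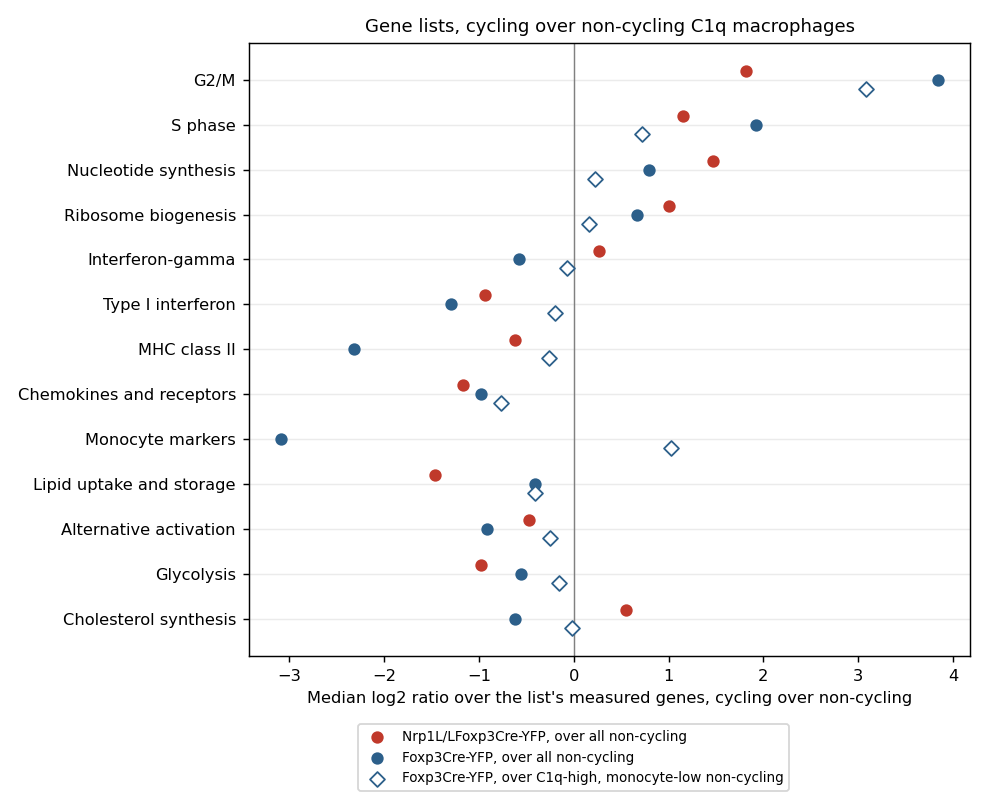
Median log2 ratio of cycling over non-cycling C1q macrophages (x axis) for each gene list (y axis) in Nrp1L/L (red), in control (blue) and in control against C1q-high non-cycling cells low in monocyte genes (open diamonds). The MHC class II median is -0.62 in Nrp1L/L, -2.31 in control and -0.26 in control against those selected cells.

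Cycling CD8 T cells offer a second dividing population in the same tumours. Control members were lower than control cycling CD8 T cells in the cycle lists, with medians of -0.89 for S phase and -0.88 for G2/M, beside -0.18 over all genes. Nrp1L/L members had medians of -1.15 and -1.38 with genes at 0 set at their bound, beside -0.60 over all genes. Ccnd1 was the reverse, at 169 CPM in members and 3.27 CPM in CD8 T cells of the Nrp1L/L library, and at 114 and 0.912 CPM in control. Cdkn1a, which encodes the cell cycle inhibitor p21, stood at 597 CPM in members and 45.8 CPM in CD8 T cells in Nrp1L/L, and at 281 and 90.7 CPM in control. Cholesterol synthesis genes were lower in the control members, with a median of -1.49.

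The genotypes were then compared within the members, the 5 Nrp1L/L cells against the 58 control cells. Of 4841 genes with at least 20 UMIs over both, 1078 (22.3%) were at least 1.5-fold higher and 1253 (25.9%) lower in Nrp1L/L. A gene at 20 UMIs and equal level would leave few UMIs to the Nrp1L/L side, so low genes swing widely, and the median over all genes was -0.18. In non-cycling C1q macrophages, the larger sample, 1116 of 6970 (16%) were higher and 1372 (19.7%) lower. Genes of the interferon-gamma response and of antigen presentation were mostly higher in the Nrp1L/L members, and genes of lipid-laden and alternatively activated macrophages mostly lower.

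Interferon-gamma response genes were higher in 24 of 27 measured cases and lower in 1, with a median log2 ratio of 2.24. In non-cycling cells 27 of 32 were higher and 0 lower, with a median of 1.23. The list summed to 78, 99, 142, 381 and 400 UMIs in the 5 Nrp1L/L cells. Per 10000 UMIs that was 84.5 to 215 with a median of 92.3, against 11.5 to 85.6 with a median of 29.4 in the control members, and 1 of 58 control cells reached the lowest Nrp1L/L cell. The groups thus overlapped by 1 cell. In the C1q-high cells low in monocyte genes that were not cycling, the medians were 89.2 in Nrp1L/L (10 cells) and 26.7 in control (33 cells), so the gap was present in non-cycling cells as well.

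Cxcl9 (chromosome 5, 92321347 to 92328079), a chemokine for T cells, gave 5, 24, 0, 34 and 10 UMIs in Nrp1L/L (947 CPM). It was found in 19 of 58 control cells with at most 8 UMIs (67.7 CPM). Its log2 ratio was 3.80 (3.30 to 4.31), and 1.67 in non-cycling cells. Gbp2, an interferon-induced GTPase, gave 0, 2, 4, 31 and 30 UMIs (869 CPM) in Nrp1L/L and at most 8 in a control cell (74.2 CPM). The log2 ratio of Gbp2 was 3.55 (3.04 to 4.06), and 2.09 in non-cycling cells. These single genes were uneven between the 5 cells.

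Ly6a, the surface antigen Sca-1, gave 17, 16, 11, 92 and 67 UMIs in Nrp1L/L (2632 CPM), against 388 CPM in control (log2 2.76, 2.51 to 3.01). Cxcl10 was at 480 CPM in Nrp1L/L and 59.1 CPM in control, but 30 of its 37 Nrp1L/L UMIs lay in 1 cell. Irf1 (log2 2.64), the immunoproteasome genes Psmb8 (1.33), Psmb9 (1.44) and Psmb10 (2.17), and Cd274 (2.24), which encodes PD-L1, were also higher. Gbp3 was the measured gene that was lower (-0.99), and Irf8 (0.49) stayed within 1.5-fold. Ifng itself had 0 UMIs in the members of both libraries. Its receptor genes Ifngr1 and Ifngr2 stood at 104 and 182 CPM in Nrp1L/L and 63.4 and 112 CPM in control, from 8 and 14 UMIs in Nrp1L/L.

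MHC class I antigen presentation genes were higher in 11 of 12 cases, with a median of 1.62 and of 0.67 in non-cycling cells, led by H2-T22 (2.42) and including H2-K1 (1.47) and the peptide transporter Tap1 (1.75). Per 10000 UMIs the list gave 115 to 313 (median 163) in Nrp1L/L and 13.4 to 237 (median 91.3) in control, and 17 control cells reached the lowest Nrp1L/L cell. Type I interferon genes were higher in 12 of 18 and lower in 2 (median 1.00, and 0.64 in non-cycling cells). Isg15, a ubiquitin-like protein, gave 10, 1, 5, 52 and 7 UMIs in Nrp1L/L (973 CPM) and 325 CPM in control (log2 1.58). That list overlapped widely, with 22 of 58 control cells at or above the lowest Nrp1L/L cell.

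MHC class II was the least even list. Its 6 measured genes were all higher, with a median of 2.52, against 0 of 8 past 1.5-fold in non-cycling cells (median 0.40). Cd74 gave 27, 76, 6, 500 and 7 UMIs in the 5 Nrp1L/L cells (7988 CPM), and 0 to 262 with a median of 4 in the 58 control cells (1307 CPM). H2-Aa gave 17, 33, 0, 226 and 8 UMIs in Nrp1L/L (3683 CPM) and a median of 2 in control (632 CPM). The fourth cell held most of the class II UMIs, and without it the median was 0.60, with 3 of 6 genes higher. Within C1q-high cells low in monocyte genes the median was 1.09, and with no filter on low genes 1.46. Per 10000 UMIs the cells ran from 10.4 to 705 in Nrp1L/L and 1.55 to 574 in control, and 29 of 58 control cells reached the lowest Nrp1L/L cell. Without that cell the interferon-gamma median was 1.99 and the MHC class I median 1.12.

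**Figure D4:**
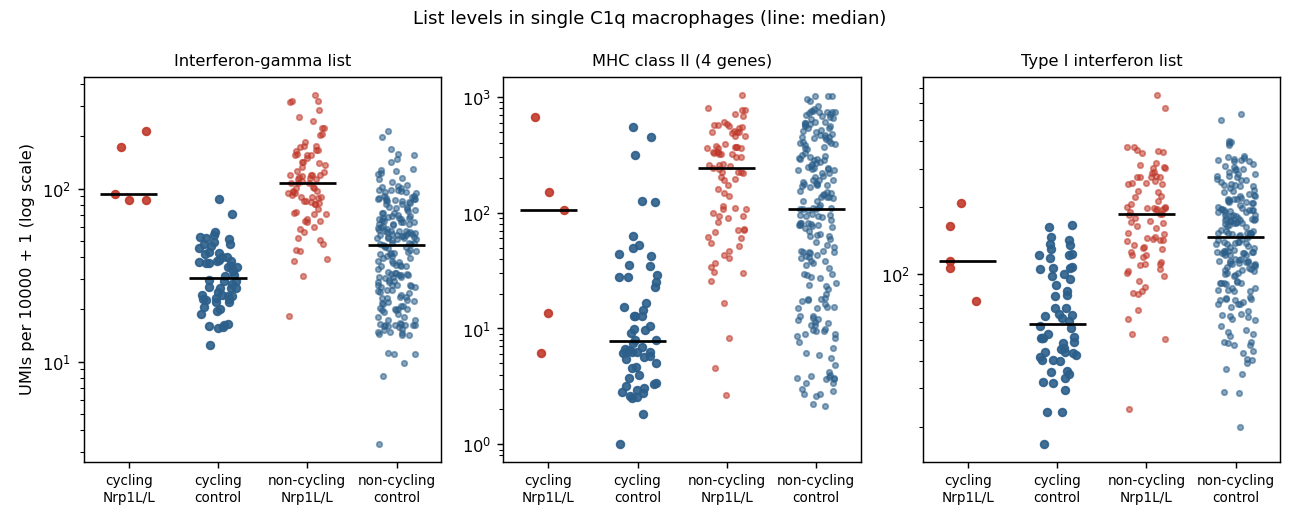
UMIs per 10000 UMIs plus 1 on a log axis (y) of interferon-gamma genes, 4 MHC class II genes (H2-Aa, H2-Ab1, H2-Eb1 and Cd74) and type I interferon genes in each cell of 4 groups (x: cycling Nrp1L/L, cycling control, non-cycling Nrp1L/L, non-cycling control), with lines at medians. For interferon-gamma genes the 5 cycling Nrp1L/L cells span 84.5 to 215 and 1 of 58 cycling control cells reaches them, whereas for MHC class II both cycling groups cover a wide range.

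Lipid genes went the other way. Of 16 measured lipid uptake and storage genes, 10 were lower and 2 higher in Nrp1L/L members, with a median of -1.39 (-0.77 with genes at 0 set at their bound), against 5 lower and 4 higher of 18 in non-cycling cells (median -0.07). After thinning to 2500 UMIs the members' median was -0.65. Plin2 (chromosome 4, 86648386 to 86670060), which coats lipid droplets, gave 0, 1, 3, 0 and 1 UMIs in Nrp1L/L (64.8 CPM) and a median of 6.5 UMIs in control (554 CPM), a log2 ratio of -3.09 (-4.72 to -1.86) and of -0.41 in non-cycling cells. Fabp5, a fatty acid carrier, gave 2, 2, 0, 2 and 4 UMIs in Nrp1L/L (130 CPM) and a median of 5 in control (793 CPM), with a ratio of -2.61. Trem2 gave 2, 0, 6, 0 and 7 UMIs in Nrp1L/L (195 CPM) and a median of 8 in control (615 CPM), with a ratio of -1.66. Per 10000 UMIs the list ran from 40.3 to 111 (median 50.02) in Nrp1L/L and 29.6 to 312 (median 106) in control, and 27 of 58 control cells were above the highest Nrp1L/L cell.

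Genes of alternative activation were lower in 6 of 10 cases and higher in 2 (median -1.59, or -1.01 with bounds, and -0.32 in non-cycling cells). Arg1 (chromosome 10, 24915221 to 24927484), the enzyme arginase, gave 1 UMI in all in Nrp1L/L (12.97 CPM) and was found in 31 of 58 control cells with up to 106 UMIs (607 CPM), a ratio of -5.55 (-10.9 to -3.06) with a ratio of -0.18 in non-cycling cells. Mrc1, the mannose receptor CD206, gave 3 UMIs in Nrp1L/L (38.9 CPM) and 118 in control (127 CPM), with a ratio of -1.71. Spp1, osteopontin, was at 4 UMIs in Nrp1L/L, and 390 of its 642 control UMIs came from 1 cell. Genes for the uptake of dying cells were lower in 5 of 10 and higher in 1 (median -0.42).

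For the lipid synthesis asked about in the series title, depth was the limit. Fatty acid synthesis genes summed to 20 UMIs in Nrp1L/L members (259 CPM) and 281 in control members (302 CPM), a log2 ratio of -0.22 (-0.95 to 0.43), and the list median was -0.08 over 4 genes with 1 higher. Fasn, fatty acid synthase, and Acaca, which makes its substrate, had 0 UMIs in Nrp1L/L and 12 and 3 in control, so a difference was not detectable at this depth. Cholesterol synthesis and uptake genes summed to 74 UMIs in Nrp1L/L (960 CPM) and 572 in control (615 CPM), a log2 ratio of 0.64 (0.27 to 0.99). Of 10 measured, 6 were higher and 1 lower (median 0.96), against 1 higher and 6 lower of 21 in non-cycling cells (median -0.09). The members' median was 0.49 without the first cell and -0.14 with no filter on low genes. Cyp51, a sterol demethylase, gave 7 UMIs in Nrp1L/L, with 0, 6, 0, 1 and 0 per cell, and 19 in control (log2 2.15).

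Summed cycle genes were lower in Nrp1L/L members, where the rule's minimum of cycle UMIs had already chosen the cells. S phase genes summed to 1089 CPM in Nrp1L/L and 1928 CPM in control (log2 -0.82, -1.16 to -0.51), and G2/M genes to 2321 and 3792 CPM (log2 -0.71, -0.93 to -0.49). Their list medians were -1.39 (3 higher, 14 lower of 26) and -1.72 (1 higher, 14 lower of 30), or -0.66 and -0.55 with genes at 0 set at their bound. After thinning to 2500 UMIs the G2/M median was -0.14, and without the fifth cell the S phase median was -0.87. Pcna, the sliding clamp of DNA replication, gave 0, 0, 0, 1 and 0 UMIs in Nrp1L/L (12.97 CPM) and 156 CPM in control (log2 -3.59, -8.90 to -1.09). Cenpa, the centromeric histone, had a ratio of -2.78, whereas Ccna2 (-0.01), Tyms (0.19) and Hmgb2 (-0.00) were near equal. The fourth cell held 5 of 7 Ccna2, 9 of 10 Tyms and 26 of 46 Hmgb2 UMIs of the Nrp1L/L members. Cdkn1a gave 3, 30, 3, 7 and 3 UMIs in Nrp1L/L (597 CPM) and a median of 2 in control (281 CPM). Its log2 ratio was 1.09 (0.60 to 1.54), with 30 of 46 Nrp1L/L UMIs in 1 cell.

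Among all genes, the 12 higher ones by the interval limit nearest 0 were Eif4ebp2, Spg20, Gbp2b, Fam26f, Klrk1, Iigp1, Ifi47, Cxcl9, Tmem229b, Gbp2, Ccnt2 and Fgl2. Of these, 4 are in the interferon-gamma list, 9 were also at least 1.5-fold higher in non-cycling cells, and 6 had over 50% of their Nrp1L/L UMIs in 1 cell. Eif4ebp2, Spg20 and Tmem229b were found in 1 Nrp1L/L member alone, and Iigp1 had 37 of 45 UMIs in 1 cell. Ifi47, an interferon-induced GTPase, was found in all 5 Nrp1L/L cells, with 4, 1, 26, 10 and 17 UMIs (752 CPM) and at most 5 in a control cell (45.2 CPM), a log2 ratio of 4.06 (3.46 to 4.67) and of 1.25 in non-cycling cells. Fam26f gave 0, 2, 11, 29 and 22 UMIs in Nrp1L/L (830 CPM) and 30.1 CPM in control (log2 4.78), and 2.54 in non-cycling cells. Fgl2, a fibrinogen-like immunoregulatory protein, had a log2 ratio of 3.22, and 1.42 in non-cycling cells.

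The 12 lower ones were Arg1, S100a6, Spp1, Cxcl2, Prdx1, Plin2, Ccl6, Fabp5, Mt2, Hilpda, Dab2 and Igfbp4, of which 8 were also at least 1.5-fold lower in non-cycling cells. S100a6, a calcium-binding protein, had 0 UMIs in Nrp1L/L members and 275 in control members, a log2 ratio of at most -2.93 from a floor of 3 counts over the group, against 0.05 in non-cycling cells. Prdx1, a peroxidase, gave 14 UMIs in Nrp1L/L and 1095 in control (log2 -2.70, against 0.03 in non-cycling cells). Hilpda, a lipid droplet protein induced by hypoxia, had a ratio of -3.46 and of -1.05 in non-cycling cells. Dab2, an endocytic adaptor (-2.72), and Igfbp4, which binds insulin-like growth factors (-4.07), had ratios of -1.80 and -1.79 in non-cycling cells. Some of these genes were thus lower in the cycling cells with a near-equal level in non-cycling ones, a difference that was not tested.

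**Figure D5:**
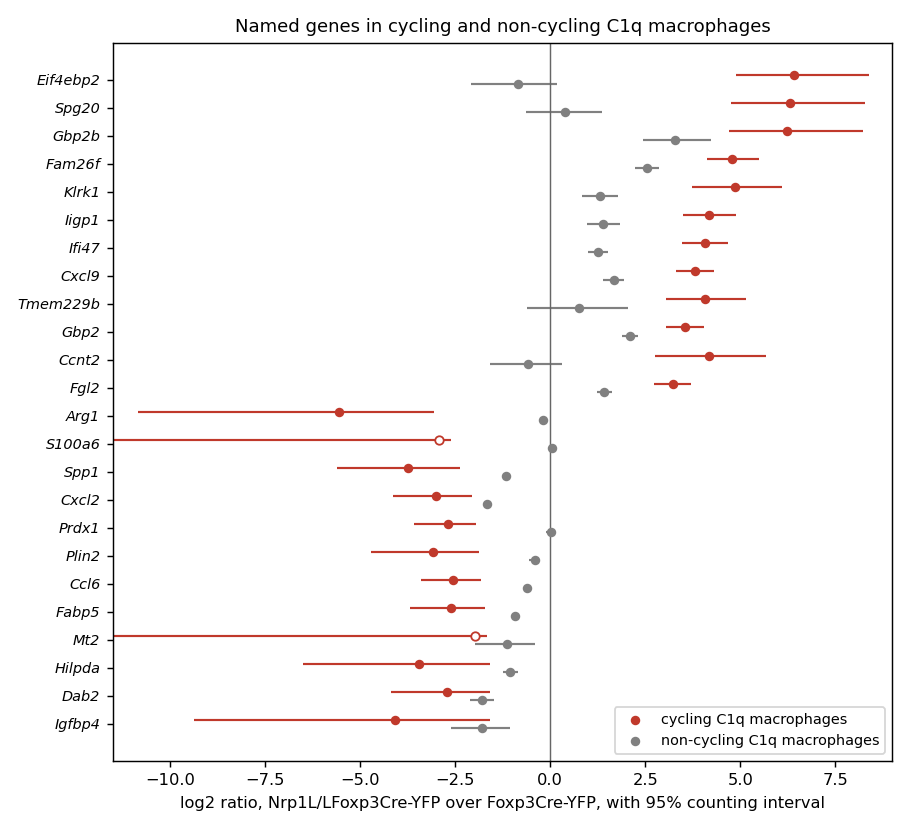
Log2 ratio of Nrp1L/L over control (x axis) for the 12 higher and 12 lower genes (y axis) in cycling (red) and non-cycling (grey) C1q macrophages, with 95% intervals for counting error, and open points for bounds where Nrp1L/L had 0 UMIs. Ifi47 is at 4.06 in cycling and 1.25 in non-cycling cells, and Prdx1 at -2.70 and 0.03.

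Chemokines had no common direction, with 6 higher and 8 lower of 21 (median -0.45). Ccl8, an attractant of monocytes and T cells, gave 93, 38, 35, 96 and 12 UMIs in Nrp1L/L (3553 CPM). Control members held 0 to 170 with a median of 3 (1233 CPM). The log2 ratio of Ccl8 was 1.53 (1.33 to 1.72), and 0.24 in non-cycling cells. Ccl8 was present in all 5 Nrp1L/L and 38 of 58 control members. Pf4 was lower in Nrp1L/L members, at 571 CPM against 1856 CPM in control (log2 -1.70), and lower still by ratio in non-cycling cells (-2.88). Spi1, the myeloid transcription factor PU.1, gave 3, 9, 23, 10 and 40 UMIs in Nrp1L/L (1102 CPM) against 483 CPM in control (log2 1.19). Nrp1 was present in the macrophages themselves, at 156 CPM in Nrp1L/L members (80.4 to 272, from 12 UMIs in 4 cells) and 113 CPM in control members (92.4 to 137), and at 63.6 and 67.4 CPM in non-cycling cells.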

How the data were processed

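Per the submitters' processing notes, reads were processed with Cell Ranger 1.3 on mm10, and the authors deposited UMI counts per gene and barcode, for 27998 genes. The labels give 2600 loaded cells per library. Counts were used as deposited. UMIs were summed over cells of each kind per library and scaled to CPM with exact Poisson intervals. Log2 ratios have exact conditional binomial intervals, shares have exact (Clopper-Pearson) ones and differences between shares Newcombe ones, at 95%. With 1 library per genotype no test was run. Genes needed 20 UMIs over both groups, and a gene at 0 on one side got a floor of 3 counts over the group. Named genes were the 12 each way (8 for cycling over non-cycling, outside the cycle lists) by the interval limit nearest 0, without mitochondrial, ribosomal protein and Xist genes, and list genes with the most UMIs or past 1.5-fold. The members and lists were chosen with earlier results of these data known. No doublets were removed. Scrublet in scanpy 1.11.5 called 4 Nrp1L/L and 3 control barcodes, too few to have worked, and the top 2% of scores held 0 members. Some genes are in more than 1 list. Gene coordinates are GENCODE's on GRCm38. Alternatives covered the rule's limits, thinning, filters, scaling and cells left out. Python 3.11.15 and scipy 1.17.1 were used, and edgeR 4.0.16 and DESeq2 1.42.0 gave other scaling factors only. The code was checked on simulated data. Some items are not reported here.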

Additional observations from a re-analysis of the deposited data

Results flagged for a closer look

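For 4 gene lists the median log2 ratio of cycling over non-cycling C1q macrophages had opposite signs in the libraries, and in none was the difference tested. For interferon-gamma response genes it was 0.27 in Nrp1L/L and -0.58 in control, a difference of 0.847. For MHC class I genes it was 0.20 in Nrp1L/L and -0.45 in control, a difference of 0.644. For cholesterol synthesis and uptake genes it was 0.55 in Nrp1L/L and -0.62 in control, a difference of 1.17. For genes of cycle entry and exit it was -0.44 in Nrp1L/L and 0.47 in control, a difference of -0.918. The Nrp1L/L side rests on 5 cells, and against C1q-high non-cycling cells low in monocyte genes the control medians were -0.07, 0.06, -0.01 and -0.06.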

How the results depend on the processing

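No paired analysis was possible because each genotype has 1 library. Of 281 values under other settings, 274 kept their direction. Of the 7 that did not, 5 were the fatty acid median, which is near 0. Gene counts cannot change direction, and some settings left the members unchanged, so this tally shows little. A value moved if it left its counting interval or, for a gene count, changed over 1.5-fold. Among the cycling share, gene counts and interferon-gamma, cholesterol, fatty acid, S phase and G2/M medians, 34 values moved and 1 reversed. Among the other list medians 64 moved and 1 reversed. The genotype difference in cycling share was -32.9 points in C1q-high cells low in monocyte genes. The count of genes at least 1.5-fold higher in Nrp1L/L members, 1078, was 294 after thinning to 2500 UMIs, 521 at 50 UMIs per gene and 2128 with no filter. The count lower, 1253, was 348 after thinning, 762 at 50 UMIs and again 1253 with no filter, so the added low genes counted in 1 direction alone. The count higher in cycling than non-cycling control cells, 2051, was 934 after thinning, 1199 at 50 UMIs, 3463 with no filter, 1289 within C1q-high cells low in monocyte genes, and 1365 against such non-cycling cells, where the monocyte median was 1.03. With a limit of 2 or 5 cycle UMIs the interferon-gamma median was 2.08 or 2.09. The cholesterol median was 0.55 at 5 cycle UMIs, 2.10 thinned, 0.30 at 50 UMIs and -0.14 with no filter. The fatty acid median was -0.86 thinned. The S phase median was -1.06 at 5 cycle UMIs, -0.86 thinned, -1.75 with no filter and -2.53 in C1q-high cells. The G2/M median was -1.23 at 5 cycle UMIs, -0.14 thinned, -1.20 at 5 C1q UMIs and -1.18 at 50 UMIs. The cause was not tested. Settings on C1q-high cells and on single cells left out were chosen after seeing the data. Leaving out each Nrp1L/L cell in turn gave 1.89 to 2.43 for interferon-gamma, 0.49 to 1.14 for cholesterol, -0.22 to 0.23 for fatty acids, -1.67 to -0.87 for S phase, -1.89 to -1.35 for G2/M, 1093 to 1135 higher genes and 1073 to 1216 lower genes. Without the fourth cell the G2/M median fell on a gene at 0 and has no value. Leaving out cells with at least 3 T or NK cell marker UMIs removes all 5 Nrp1L/L members, so the genotype comparison cannot be given without them. Scaling by TMM or by medians of ratios moved every gene by -0.011 or -0.0071 on the log2 scale. Nrp1L/L depth, at 77114 UMIs, limits genes under about 20 UMIs.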
